A study of Mus musculus with 4 samples.

Results

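Neutrophils were taken from single-cell RNA sequencing (scRNAseq) of the popliteal lymphatic vessels (PLVs), which drain the mouse hindlimb, and the adjacent superficial saphenous vein (SSV). A cell was taken as a neutrophil when the fibroblast gene Dcn was under 20 unique molecular identifiers (UMIs) per 10000, S100a8 and S100a9 together reached at least 30 UMIs per 10000, and Retnlg, Csf3r and Cxcr2 together had at least 3 UMIs. This gate found 351 of 5488 cells in the WT library and 229 of 3391 in the TNF-Tg library, that is 580 of the 8879 cells of both libraries and of 10837 cells in the series. The share was 6.40% (95% Clopper-Pearson interval 5.76 to 7.08) in WT and 6.75% (5.93 to 7.65) in TNF-Tg, a log2 ratio of 0.08 (interval -0.17 to 0.32). Among cells with Dcn under the limit the shares were 11.1% of 3155 and 10.3% of 2228, a log2 ratio of -0.11 (-0.36 to 0.13), and both intervals include 0. All intervals given here cover counting error only.

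Each condition was 1 library made from the pooled vessels of 3 male mice on a C57BL/6J background, 9 months of age per the labels and 8 to 9 months per the methods. TNF-Tg mice carry a human TNF transgene and develop inflammatory-erosive arthritis, and WT mice are their controls without it. Both suspensions were sorted on scatter and on exclusion of a viability dye, with no antibody against a neutrophil antigen. With 1 library per condition there is no replicate check and no test between conditions, and a difference between libraries cannot be told apart from one between conditions. The other libraries, tdT1 and tdT2, held tdTomato-sorted cells of Cspg4-Cre+/-, Ai9-tdTomato+/- mice of both sexes, older than 8 months and without the TNF transgene. Their gates held 11 and 30 cells, and they were used here only for comparison.

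Neutrophils are short-lived granulocytes that mature in the bone marrow, where azurophil granule proteins are made first, specific granule proteins next, and gelatinase granules and secretory vesicles last. In the tissue they sense bacterial and complement products, chemokines and cytokines, kill microbes with an NADPH oxidase, and release IL-1β and chemokines. TNF acts through the receptors encoded by Tnfrsf1a and Tnfrsf1b, which free the transcription factor NF-kB from its inhibitor IκBα, and NF-kB then induces cytokine genes along with its own inhibitors, among them Nfkbia and Tnfaip3.

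The gate genes chose the cells and are described without a test. S100a8 and S100a9, the subunits of calprotectin, took 21.6% of all UMIs of the gated cells in WT and 22.6% in TNF-Tg, with a median of 2307 and 2597 UMIs per 10000 in a cell. The lowest value of this sum inside the gate was 62.9 per 10000 in WT and 42.2 in TNF-Tg. Among cells outside the gate with Dcn under its limit and enough marker UMIs, the highest was 25.9 and 24.1. At the marker limit, 7 WT and 12 TNF-Tg cells inside the gate had 3 to 5 marker UMIs and 8 cells in each library met the S100 limit but had fewer than 3. A further 25 WT and 4 TNF-Tg cells met both limits but had Dcn at or above its own.

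The label was checked on 24 neutrophil genes outside the gate, and all 24 had a higher level, in UMIs per 1e+06 UMIs (CPM), in the gated cells than in all other cells of the same library, in WT and in TNF-Tg. The smallest log2 ratio of gated to other cells was that of Il1r2, at 1.24 in WT and 1.14 in TNF-Tg, and 20 of the 24 genes were over 10-fold higher in both. Ranked over genes outside the gate by the lower of both ratios, the leading gene was Ngp, a specific granule protein, at log2 ratios of 11.58 in WT and 11.24 in TNF-Tg, though 342 and 79 of its 460 WT UMIs were in 2 cells, on which the WT value rests. Behind it came Cstdc4, a cystatin-domain gene, at 10.49 and 11.90, and Asprv1, a protease, at 10.00 and 9.86. Ly6g, the antigen used to sort mouse neutrophils, had log2 ratios of 11.06 and 8.64. Il1f9, which encodes IL-36γ, had 9.31 and 10.18, and Chil1, a chitinase-like protein, had 9.27 and 11.12. Because cells were chosen by genes that track with these, the ratios describe the gate and were not tested.

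The gated cells held little RNA. Their median was 3589 UMIs and 1088 genes per cell in WT and 3227 UMIs and 953 genes in TNF-Tg, against a median of 12660 and 10605 UMIs over all cells of the same libraries. The lowest cell had 581 UMIs in WT and 563 in TNF-Tg, and the highest 35643 and 22370. Cells above 8000 UMIs numbered 14 in WT and 15 in TNF-Tg, and they carried 216709 and 210795 of the gated UMIs. These large cells had a lower median of S100a8 and S100a9 (527 per 10000 against 2322 in the smaller WT cells, and 828 against 2706 in TNF-Tg), and 7 and 11 of them had at least 5 UMIs per 10000 of C1qa, C1qb, C1qc and Csf1r. Scrublet, a doublet caller, marked 6 and 3 of them. Some genes below are therefore also given without the large cells, or as the share of cells with a UMI after every cell was thinned to 1500 UMIs, which 338 WT and 222 TNF-Tg cells allowed.

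**Figure D1:**
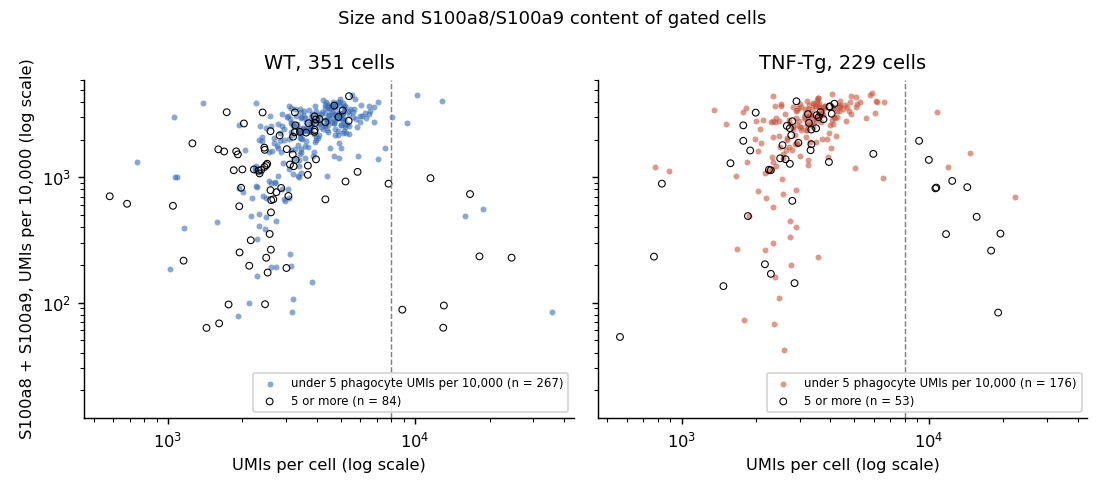
UMIs per cell (x axis, log scale) against S100a8 and S100a9 UMIs per 10000 (y axis, log scale) for each gated cell of the WT and TNF-Tg libraries; open circles are cells with at least 5 UMIs per 10000 of C1qa, C1qb, C1qc and Csf1r, and the dashed line is at 8000 UMIs. Most cells form a cloud near the medians of 3589 and 3227 UMIs, and the 14 and 15 cells right of the line mostly have a lower S100 share.

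Markers of other cells were counted in the gated sums. The 15 monocyte and macrophage markers summed to 3814 CPM in the WT cells and 2019 in those of TNF-Tg, with Apoe the most abundant, and to 1319 and 471 CPM without the large cells. In all other cells of the same libraries this sum was 20324 and 6203 CPM. The 7 dendritic cell markers summed to 1708 and 189 CPM, and to 169 and 36.7 CPM without the large cells. Nearly all of this sum was the class II genes H2-Ab1 (1272 of 2470 UMIs in WT and 73 of 169 in TNF-Tg) and H2-Aa (1124 and 89 UMIs). Of the others Cd209a had 66 and 5 UMIs, Zbtb46 was at 0 in both libraries, and Flt3, Xcr1 and Clec9a had at most 5 UMIs. The 5 mast cell markers summed to 389 and 114 CPM, led by Mcpt4, and did not decline without the large cells (438 and 135 CPM). All 5 endothelial markers were at 0 in both libraries. The 6 stromal markers summed to 122 and 63.9 CPM, the platelet markers to 304 and 226 CPM, nearly all Pf4, and the erythroid markers to 31.8 and 42.6 CPM. Without the large cells the platelet markers summed to 139 and 29.3 CPM. The B cell markers summed to 77.5 and 25.8 CPM, the basophil markers to 19.4 and 3.36 CPM, and the eosinophil markers to 17.3 and 10.1 CPM, with Prg2, Epx and Il5ra at 0. The T and NK cell markers summed to 2.77 and 33.6 CPM, with Cd3e, Trac and Il7r at 0 in both libraries. The summed macrophage markers were thus lower in TNF-Tg, but the members did not all go the same way. Of the 15 macrophage markers Apoe, C1qa, C1qb, C1qc and Ms4a7 were called lower by the rule given below, Cx3cr1 was called higher (28 UMIs in 3 cells of WT and 77 in 12 cells of TNF-Tg), and 5 values in all were above 0. Without the large cells Cx3cr1 had 0 UMIs in WT and 4 in TNF-Tg, and neither Cx3cr1 nor Ms4a7 was called. Csf1r, which encodes the receptor of CSF1, was at 157 and 341 CPM (log2 ratio 1.12, 0.86 to 1.37), and at 93.6 and 238 CPM without the large cells. The part of these markers in the differences below was not tested except by leaving out cells.

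The maturation state was read from granule genes in the order in which they are made. The azurophil genes Mpo, Elane, Prtn3, Ctsg and Ms4a3 had 0 UMIs in WT, where a count of 0 among 1445878 UMIs allows up to 2.07 CPM, and in TNF-Tg Prtn3 had 2 UMIs and Ctsg 1. Mki67, a proliferation gene, had 4 UMIs in WT and 0 in TNF-Tg. Of 7 progenitor genes only Gfi1 was at 0 in both. The 7 summed to 123 CPM in WT, with Runx1 the most abundant, and to 50.4 CPM in TNF-Tg. The specific granule genes did not share a single pattern, and the values of Olfm4 and Mmp8 are given further below. Lcn2, which encodes a siderophore-binding protein, stood at 2666 CPM in the WT cells and 2902 in those of TNF-Tg, and Hp, haptoglobin, at 2254 and 2741 CPM. In WT most UMIs of Ltf, Camp and Ngp, the early members, were in 2 cells. Camp, the cathelicidin, had 305 UMIs in WT, of which 280 and 24 came from 2 cells, and 2 UMIs in TNF-Tg. Ltf, lactoferrin, had 107 UMIs in WT, of which 89 and 17 came from the same 2 cells, and none in TNF-Tg. Those cells had 12853 and 10202 UMIs, S100a8 and S100a9 at 4025 and 4492 per 10000, and no Mki67. Ngp was found in 22 cells of each library. Ngp had 460 UMIs in WT, where that same pair held most of them, and 59 in TNF-Tg, where the 3 highest cells had 11, 10 and 6.

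Genes of the last stages were found in most cells. Mmp9, gelatinase B, was at 953 CPM in WT and 1106 in TNF-Tg, and after thinning 68.3% and 78.8% of cells had a UMI. Il1b, the IL-1β precursor, was found in 96.4% and 98.2% of thinned cells, Srgn, the granule proteoglycan serglycin, in 99.4% and 95.9%, and Msrb1, a methionine sulfoxide reductase, in 95.9% and 96.4%. The gated cells of both libraries therefore held the transcripts of late neutrophils and next to none of those of promyelocytes. Because the gate asked for UMIs of Retnlg, Csf3r and Cxcr2, earlier cells without these transcripts would not have been counted.

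**Figure D2:**
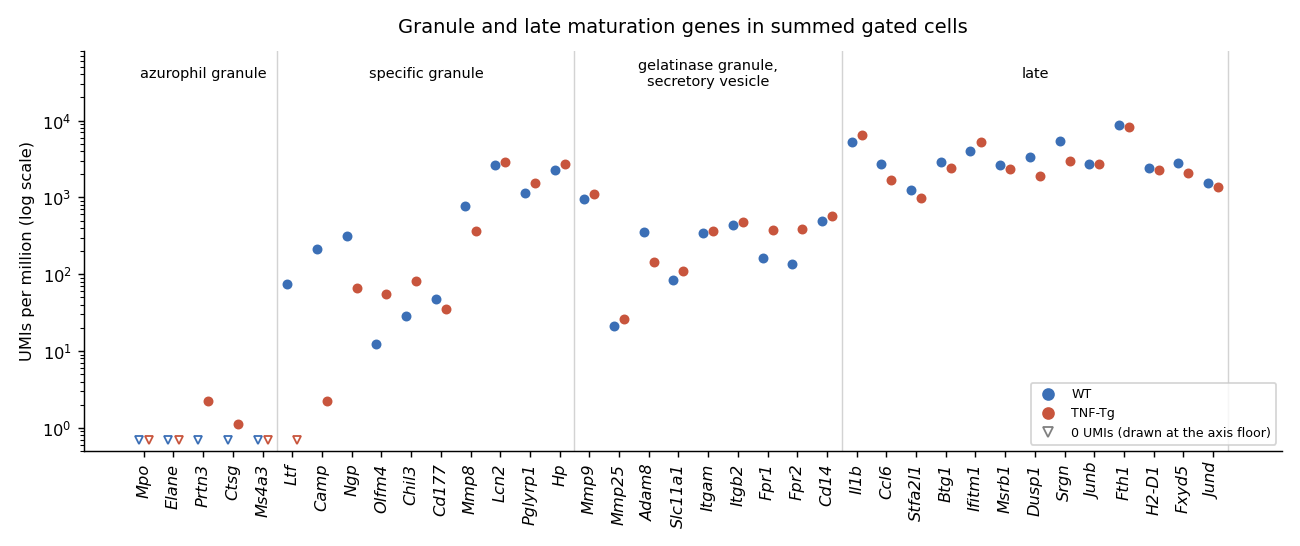
CPM (y axis, log scale) of azurophil, specific, gelatinase or secretory, and late maturation genes (x axis) in the gated cells of WT and TNF-Tg, 1 library each; triangles mark genes with 0 UMIs. The azurophil genes lie at or near 0, while Lcn2, Hp, Mmp9, Il1b and Srgn lie far above them in both libraries.

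To compare TNF-Tg with WT, UMIs were summed over the gated cells of each library (1445878 in WT and 892618 in TNF-Tg) and scaled to CPM. A gene was called higher or lower when the whole 95% interval of the log2 ratio, from the exact conditional binomial, lay past 2-fold, among 5956 genes outside the gate with at least 20 UMIs in both sums together. By this rule 100 genes (1.68%) were higher in TNF-Tg and 88 (1.48%) were lower, with a median log2 ratio of 0.01 over all genes tested. Without the large cells 76 (1.55%) were higher and 75 (1.53%) lower of 4918 tested, and 61 and 46 of these genes were called the same way in both. Of the genes called higher with the large cells, 1 was called lower without them. The interval counts molecules and says nothing of the spread between mice.

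**Figure D3:**
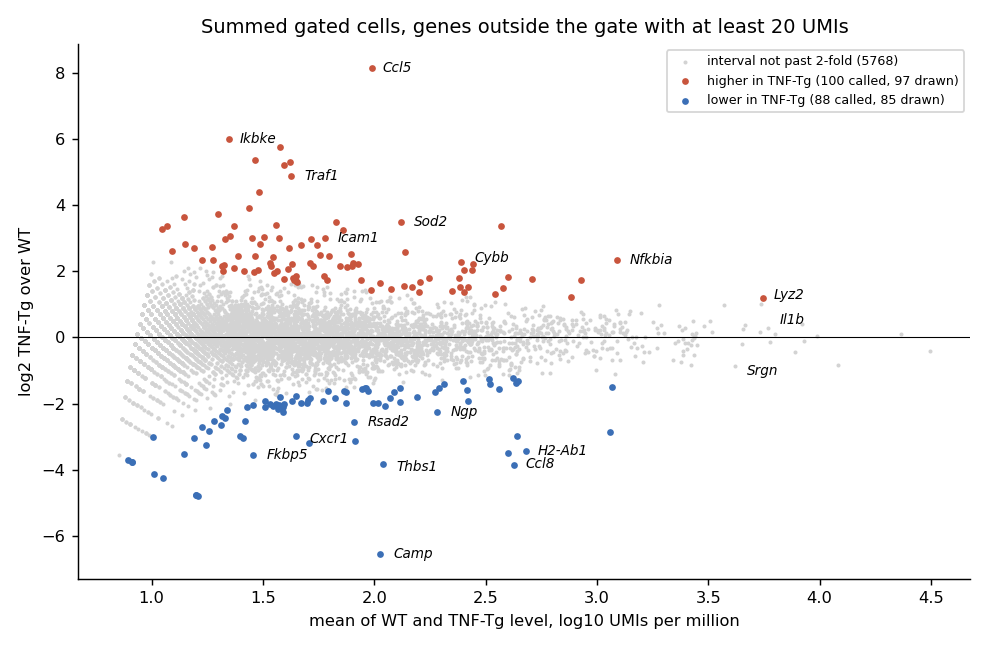
Log2 ratio of TNF-Tg to WT CPM (y axis) against the mean level of both libraries in log10 CPM (x axis) for the genes tested in the gated cells; coloured points are genes called higher or lower. Of the called genes 97 of 100 higher and 85 of 88 lower are drawn, since 6 had 0 UMIs in a library, and NF-kB target genes stand among the called points at the top.

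The list of TNF and NF-kB response genes stood out from the background. Of 32 listed genes 28 were tested, 14 were called higher and 1 lower, against 1.68% and 1.48% of all genes tested. The list median was a log2 ratio of 1.52, beside 0.01 for all genes, and 24 of the 28 had a value above 0. In the same libraries the median of these genes was 0.60 in phagocytes (cells with low Dcn outside the neutrophil gate and at least 3 UMIs of monocyte and macrophage markers such as Csf1r and C1qa) and 0.36 in stromal cells. The make-up of the phagocytes differed between the libraries, since Cx3cr1 was found in 2.09% of thinned WT and 20.2% of thinned TNF-Tg phagocytes. A phagocyte median, here and for the lists below, therefore cannot be told apart from a change in which phagocytes were present. Without the large neutrophils 27 were tested, 14 were called higher, 13 of them the same genes, and the median was 1.74. The TNF receptor genes themselves were not called: Tnfrsf1a was at 304 CPM in WT and 161 in TNF-Tg (log2 ratio -0.92, interval -1.20 to -0.64), and Tnfrsf1b at 104 and 117 CPM (0.16, -0.22 to 0.53).

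The inhibitors of NF-kB were among the called genes. Nfkbia, which encodes IκBα, had 586 UMIs (405 CPM) in WT neutrophils and 1827 UMIs (2047 CPM) in those of TNF-Tg, a log2 ratio of 2.34 (interval 2.20 to 2.47). After thinning, 36.1% of WT and 79.7% of TNF-Tg cells had an Nfkbia UMI. In stromal cells thinned the same way these shares were 24.3% and 26.1%. The level in phagocytes was 242 CPM in the WT library and 453 CPM in that of TNF-Tg. The median cell had 2.32 Nfkbia UMIs per 10000 in WT and 17.1 in TNF-Tg, so most TNF-Tg cells were above the WT median. Tnfaip3, the ubiquitin-editing inhibitor A20, had 37 and 102 UMIs (log2 ratio 2.16, 1.60 to 2.74). Tnip1, which binds A20, had 41 and 110 UMIs (2.12, 1.59 to 2.67), and Nfkbie, which encodes IκBε, had 11 and 48 (2.82, 1.86 to 3.92). Each of these 4 genes was called higher with and without the large cells.

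Signalling and surface members were called as well. Traf1, an adaptor of TNF receptors, had 4 UMIs in 4 cells of WT and 73 UMIs in 43 cells of TNF-Tg (log2 ratio 4.89, 3.47 to 6.80), and no TNF-Tg cell had more than 4. Relb, a subunit of the alternative NF-kB dimer, had 28 and 95 UMIs (2.46, 1.84 to 3.12). Its partner Nfkb2 had 35 and 64 (1.57, 0.95 to 2.20), just short of a call, and was called higher without the large cells (1.85, 1.14 to 2.59). Icam1, an adhesion molecule, had 19 and 95 UMIs (3.02, 2.30 to 3.81), and 1.18% and 12.2% of thinned cells had a UMI, against 2.48% and 4.37% of stromal cells. Sod2, the mitochondrial superoxide dismutase, had 31 and 215 UMIs (3.49, 2.94 to 4.08). Sod2 was also higher in the rest of the TNF-Tg library, at 61.9 CPM in all other WT cells and 195 CPM in TNF-Tg, and the part of free RNA in its neutrophil value was not tested. Cd274, which encodes PD-L1, had 21 and 50 UMIs (1.95, 1.19 to 2.76), and without the large cells its value was 1.74 (0.94 to 2.58), just short of a call.

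Of the secreted products, Tnf itself had 22 UMIs (15.2 CPM) in WT against 63 (70.6 CPM) in TNF-Tg (log2 ratio 2.21, 1.49 to 2.98). A Tnf UMI was found in 1.48% of thinned WT and 11.3% of thinned TNF-Tg neutrophils, and in 0% and 0.09% of stromal cells. The counted gene is mouse Tnf, and whether reads of the human transgene were counted in it was not tested. The chemokine genes Ccl3 and Ccl4 had 43 and 114 UMIs in WT and 124 and 243 in TNF-Tg, at log2 ratios of 2.22 (1.71 to 2.76) and 1.79 (1.46 to 2.12). Ier3, an early response gene, had 290 and 500 UMIs (1.48, 1.27 to 1.70), and Ccrl2, a chemerin-binding receptor, 110 and 217 (1.68, 1.34 to 2.02). Other well-known targets were not called. Il1b stood at 5333 CPM in WT and 6443 in TNF-Tg (0.27, 0.22 to 0.32), Cxcl2, a neutrophil chemoattractant, at 2743 and 2590 CPM (-0.08, -0.16 to -0.01), and Ptgs2, cyclooxygenase 2, at 260 and 164 CPM (-0.67). Csf1, the macrophage growth factor, was the member called lower, with 196 and 42 UMIs (-1.53, -2.04 to -1.04), and without the large cells its value was -1.43 (-1.97 to -0.92), just short of a call.

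**Figure D4:**
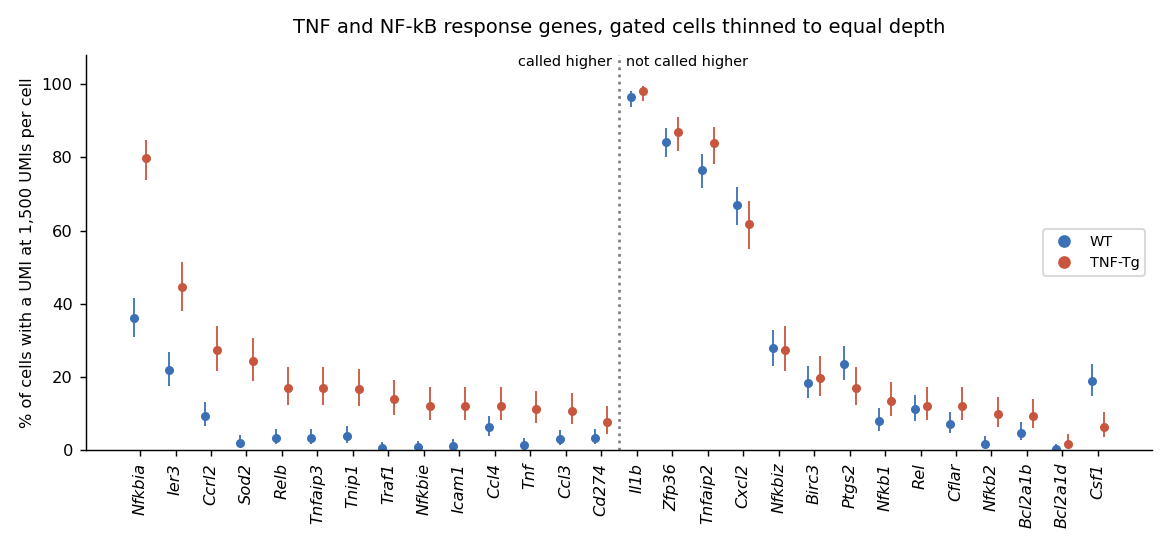
Share of neutrophils with a UMI of each of the 28 tested NF-kB list genes (y axis, percent of cells thinned to 1500 UMIs; genes along the x axis; bars are 95% Clopper-Pearson intervals) in WT (n = 338 cells) and TNF-Tg (n = 222 cells). The intervals for Nfkbia, Traf1, Sod2, Icam1 and Tnf lie apart with TNF-Tg above WT, while those of Il1b and Cxcl2 lie close together.

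The 14 genes called higher were then followed cell by cell, as a description, since they were chosen by this contrast. In thinned cells the median neutrophil had a UMI of 1 of the 14 genes in WT and of 3 in TNF-Tg, and the highest had 4 and 10. At least 2 of the genes were found in 81 WT cells (24.0%, 19.5 to 28.9) and 172 TNF-Tg cells (77.5%, 71.4 to 82.8). The same count was 20.2% and 41.1% in phagocytes and 7.48% and 14.3% in stromal cells. The genes were chosen in neutrophils, so a smaller difference in other cells is built into this choice. Of the 14, 12 had a log2 ratio above 0 in phagocytes (median 0.88) and 12 in stromal cells (median 1.10). At least 5 were found in 0 of 338 WT neutrophils, which by a floor of 3 cells allows a share of up to 0.888% (the Clopper-Pearson upper limit is 1.09%), in 53 of 222 TNF-Tg neutrophils (23.9%, 18.4 to 30.04) and in 1.12% of TNF-Tg phagocytes. With Nfkbia left out, at least 2 of the other 13 genes were found in 12.7% of WT and 61.7% of TNF-Tg neutrophils. At least 5 of the 13 were found in 10.8% of TNF-Tg neutrophils. The UMIs of these genes were therefore spread over most TNF-Tg neutrophils and not held by a few. The WT and TNF-Tg neutrophils were also cut into 3 bins of equal size by their S100a8 and S100a9 share, at 1637 and 2903 UMIs per 10000. The summed log2 ratio of the 14 genes was 1.67 (1.52 to 1.82) in the lowest bin, which held 10 of the 14 large WT cells and 13 of the 15 large TNF-Tg cells, and 2.51 (2.36 to 2.67) and 2.52 (2.35 to 2.70) in the others. Since the bins were cut on gate genes and the 14 genes were chosen by this contrast, these values are a description and test nothing.

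The tdTomato libraries, whose mice carry no TNF transgene, differed from each other in this sum. The 14 genes summed to 939 CPM (exact Poisson interval 889 to 990) in WT and 4215 (4081 to 4351) in TNF-Tg. The same sum was 4377 CPM (3723 to 5113) in the 11 gated tdT1 cells and 1336 CPM (1080 to 1635) in the 30 gated tdT2 cells. A library without the transgene thus reached the TNF-Tg level, on 159 UMIs, while the other lay nearer to WT, on 94. In tdT1 the immediate-early and heat shock genes were also high, at 30255 CPM against 15402 in WT, 11961 in TNF-Tg and 20455 in tdT2. What sets tdT1 apart was not tested, and its cells were sorted through a smaller nozzle and sequenced on another instrument than the other libraries.

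An NF-kB motif was searched in promoter windows, 250 bases before to 50 after the start of each gene, from RefSeq on GRCm38.p6. The letters were GGG, any 3 bases and TTCC or, on the other strand, GGAA, any 3 bases and CCC, and overlapping matches were counted. Of the 28 list genes 24 had a window, and a match was found in 4 of the 12 called higher (33.3%) and in 4 of the 12 not called higher (33.3%), of which 1 was Csf1, called lower. Over all windows 1825 of 32851 (5.56%) held a match, and of the genes tested in neutrophils with a window 393 of 4781 (8.22%) did. Of all genes called higher with a window 14 of 84 (16.7%) held a match, and of those called lower 6 of 64 (9.38%). The 120 bases before the start are shown for a pair of called inhibitors and an uncalled chemokine, with the matches in capitals. Nfkbia lies on the minus strand (chr12:55492648-55492767) with a match beginning 29 bases before the start. Tnip1, on the minus strand (chr11:54962941-54963060), has overlapping matches at 58 and 56 bases. Cxcl2, on the plus strand (chr5:90903779-90903898), has matches at 97, 96 and 78 bases.
Nfkbia: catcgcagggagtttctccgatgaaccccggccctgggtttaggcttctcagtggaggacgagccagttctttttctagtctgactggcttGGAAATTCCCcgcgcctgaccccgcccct
Tnip1: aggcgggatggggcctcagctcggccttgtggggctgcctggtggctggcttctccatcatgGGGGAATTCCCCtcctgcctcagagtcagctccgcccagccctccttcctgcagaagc
Cxcl2: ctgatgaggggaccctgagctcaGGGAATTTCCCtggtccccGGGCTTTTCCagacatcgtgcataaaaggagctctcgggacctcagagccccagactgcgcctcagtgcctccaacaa
A match is a run of letters and not a measured binding site, and Cxcl2, which has the most of these 3, stood at nearly equal CPM in both libraries.

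Outside that list, chemoattractant receptors and the oxidase held further called genes. The formyl peptide receptor gene Fpr2 had 196 UMIs (136 CPM) in WT against 348 (390 CPM) in TNF-Tg, a log2 ratio of 1.52 (1.27 to 1.78), and 18.0% and 47.3% of thinned cells had a UMI. Fpr1 had 234 and 338 UMIs (1.23, 0.98 to 1.47) and was called without the large cells but not with them. Cxcr1, a receptor for CXC chemokines, went the other way, with 114 UMIs in 63 cells of WT and 9 UMIs in 8 cells of TNF-Tg (-2.97, -4.13 to -1.99). Cxcr1 was nearly absent from other cells, at 0.09 CPM in WT and 0.05 in TNF-Tg. Of the 12 tested receptors of this list 2 were higher and 1 lower, against 1.68% and 1.48% of all genes tested, with a median of -0.27 that was 0.29 without the large cells, where 3 were higher and 1 lower. C5ar1, the C5a receptor, was at 317 CPM in both libraries. Cxcr4, which holds neutrophils in the marrow, was at 340 and 206 CPM (-0.72, -0.97 to -0.47). Without the large cells the log2 ratio of Cxcr4 was -0.64 (-0.91 to -0.38). It was -1.80 in the lowest of the S100 bins, which held most large cells, and 0.06 and 0.04 in the others. Those bins were cut on gate genes and only describe the cells.

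In the NADPH oxidase, 2 of 6 genes were called higher, against 1.68% of all genes tested, and the median was 0.54. The median of these genes was 0.77 in phagocytes and 0.53 in stromal cells, so the higher values were not limited to neutrophils. Cybb, the catalytic subunit gp91phox, had 121 and 365 UMIs (2.29, 1.99 to 2.60) and was found in 3.55% and 16.7% of thinned cells. In phagocytes, which express it, 40.8% and 49.5% of thinned cells had a Cybb UMI. Ncf4, the cytosolic subunit p40phox, had 292 and 443 UMIs (1.30, 1.08 to 1.52). Cyba, the membrane subunit p22phox, was at 1182 and 1967 CPM (0.73, 0.64 to 0.83) and was not called. Fas, the death receptor, was the 1 gene called among 17 tested survival and death genes (1.68% of all genes were called higher), with 129 and 205 UMIs (1.36, 1.04 to 1.69), and the median of that list was 0.70. Mcl1, the survival factor of neutrophils, was at 2360 and 2111 CPM (-0.16).

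Early maturation genes showed mixed values, with a median of 0.30 that was 0.70 without the large cells. Over members with UMIs in both libraries, the median was 0.45 in neutrophils, 2.50 in phagocytes and 0.61 in stromal cells. Of 14 tested, Lyz2 and Cybb were called higher and Ngp, Camp and Ltf lower, the last 3 through the pair of WT cells described above, against 1.68% and 1.48% of all genes tested. Without the large cells Ngp had 35 and 54 UMIs (1.48, 0.84 to 2.13), and Camp had 1 UMI in WT and 2 in TNF-Tg, which shows no direction (-2.41 to 7.73). Lyz2, lysozyme, had 4904 UMIs (3392 CPM) in WT against 6878 (7705 CPM) in TNF-Tg (1.18, 1.13 to 1.24). Phagocytes held Lyz2 at 9714 and 10390 CPM, and without the large cells the neutrophil log2 ratio was 1.62. Wfdc21, a secreted whey acidic protein, had 2520 and 4932 CPM (0.97, 0.91 to 1.03) and was called without the large cells. Olfm4, which marks a subset of neutrophils, had 18 UMIs in WT and 50 in TNF-Tg (2.17, 1.37 to 3.03), in 1.71% and 10.5% of cells, and was not seen in stromal cells or phagocytes of either library. The 13 late maturation genes held no call, with 11 values below 0 and a median of -0.18. Srgn was at 5409 and 2953 CPM (-0.87, -0.94 to -0.81), and the median cell had 57.3 and 29.6 Srgn UMIs per 10000. Dusp1, a phosphatase, was at 3373 and 1891 CPM (-0.83, -0.92 to -0.75).

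Interferon-stimulated genes leaned the other way from the NF-kB list. Of 21 tested, 0 were called higher and 2 lower, against 1.68% and 1.48% of all genes tested, 19 values were below 0, and the median was -0.79, beside 0.01 for all genes. Rsad2, which encodes viperin, had 201 UMIs in 59 cells of WT and 21 UMIs in 15 cells of TNF-Tg (-2.56, -3.29 to -1.91). Oasl1 had 51 and 5 UMIs (-2.65, -4.34 to -1.34). Isg15, a ubiquitin-like modifier, was at 177 and 98.6 CPM (-0.84, -1.21 to -0.49), and Ifitm3, a membrane restriction factor, at 1647 and 1646 CPM. The median of these genes was -0.65 in phagocytes and -0.28 in stromal cells of the same libraries.

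Glucocorticoid-responsive genes had a median of -0.89 over 12 tested, with 2 called lower against 1.48% of all genes tested, and the median was -0.52 without the large cells. Fkbp5, a cochaperone of the glucocorticoid receptor, had 76 and 4 UMIs (-3.55, -5.46 to -2.14), and Per1, a clock gene, 150 and 26 (-1.83, -2.49 to -1.23). Both also had negative log2 ratios in other cells, Fkbp5 of -3.48 in phagocytes and -1.35 in stromal cells, and Per1 of -1.88 in phagocytes. Tsc22d3, which encodes GILZ, was at 513 and 241 CPM (-1.09, -1.32 to -0.87). The list medians were -1.36 in phagocytes and -0.91 in stromal cells, so the lower values were not limited to neutrophils. Of 14 immediate-early and heat shock genes, Nr4a1, a nuclear receptor, was called higher (99 and 181 UMIs, 1.57) and Atf3 lower (280 and 60 UMIs, -1.53, -1.95 to -1.12), against 1.68% and 1.48% of all genes tested. Their median was -0.46, and 12 of the 14 values were below 0. Nr4a1 was not called without the large cells.

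Ranked by how far the interval lay past 2-fold, the leading higher genes were split by whether neutrophils of the TNF-Tg library held at least as much as its other cells, so the difference itself enters this choice. Those at least as high in neutrophils were not all spread over cells. Gzma, a granzyme, had 132 UMIs in TNF-Tg, all in 1 cell, and 0 in WT, and 170 of the 173 Ccl5 UMIs and 22 of the 23 Nkg7 UMIs were likewise in 1 cell. Yae1d1 had 73 UMIs in 5 cells, and Eno3 had 66 in 9 cells and was not called without the large cells. Cd300e, a monocyte receptor, had 24 UMIs in 7 cells, against 0 in WT, and was not called without the large cells. The remaining genes were found in more cells. Gpr84, a receptor for medium-chain fatty acids, had 2 UMIs in 2 cells of WT and 51 in 37 cells of TNF-Tg (5.37, 3.44 to 8.45). Ikbke, an IκB kinase family member, had 1 UMI and 39 UMIs in 27 cells (5.98, 3.42 to 11.32). Smpdl3b, a lipid-modifying phosphodiesterase, had 3 and 68 UMIs in 3 and 29 cells (5.20, 3.59 to 7.51), and F10, coagulation factor X, 4 and 52 UMIs in 2 and 22 cells (4.40, 2.95 to 6.33). The other cells of the TNF-Tg library also held more of these 4 genes than those of WT, Gpr84 at 0.25 and 7.53 CPM, Ikbke at 8.39 and 26.8, Smpdl3b at 7.32 and 43.9, and F10 at 6.54 and 45.6. The part of free RNA in their neutrophil values was not tested. Traf1 and Sod2 completed this group of 12.

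A further 6 higher genes were ranked apart because in the TNF-Tg library other cells held more. Plac8 had 96 and 605 UMIs (66.4 and 678 CPM) against 283 and 884 CPM in other cells, and Rras, a small GTPase, 16 and 110 UMIs. Rras was found in 11 and 56 cells, and both were called without the large cells. Hes1, Apoc2 and Arl5c were not called without the large cells, and the log2 ratio of Tppp3 went from 2.48 to -0.89.

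Among genes lower in TNF-Tg, those spread over many WT cells were led by Thbs1, thrombospondin 1, with 296 UMIs in 82 cells of WT and 13 in 8 cells of TNF-Tg (-3.81, -4.74 to -3.02). Id1, an inhibitor of DNA binding, had 213 UMIs in 72 cells and 15 in 14 (-3.13, -3.99 to -2.38). Dgat1, which makes triglycerides, had 239 UMIs in 125 cells and 37 in 32 (-2.00, -2.54 to -1.49), and Sik1, a salt-inducible kinase, 228 in 140 and 36 in 28 (-1.97, -2.52 to -1.46). Rnf125, a ubiquitin ligase, had 44 UMIs and 1, and B3gnt5, a glycosyltransferase, 28 and 1. These 6 genes were called with and without the large cells. Adam8, a sheddase of leukocytes, had 516 and 127 UMIs (-1.33, -1.62 to -1.04). Kit, the stem cell factor receptor, had 31 UMIs in 17 cells and 1 UMI, and the mast cell markers, of which it is 1, moved the same way (389 and 114 CPM). Ltf was not spread over cells, since 89 and 17 of its 107 WT UMIs were in 2 cells. With its 0 in TNF-Tg taken as a floor of 3 counts it was 22.0-fold lower, and its interval reached up to a log2 ratio of -4.14.

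The 6 lower genes that in the WT library were more abundant in other cells were Ccl8, a macrophage chemokine, the antigen presentation genes H2-Eb1, H2-Ab1, H2-Aa and Cd74, and Lpl, lipoprotein lipase. Ccl8 had 1153 UMIs (797 CPM) in WT against 49 (54.9 CPM) in TNF-Tg, and in the other cells it was at 5481 and 632 CPM. Lpl had 45 UMIs in WT and 1 in TNF-Tg, and was not called without the large cells. All 6 tested MHC class II genes were called lower, against 1.48% of all genes tested, with a median of -3.20. The median of these genes was -1.51 in phagocytes and -2.04 in stromal cells, so the lower values were not limited to neutrophils. The dendritic cell marker sum given above consists mostly of H2-Ab1 and H2-Aa and is no separate measure of dendritic cells. Without the large cells H2-Aa, H2-Ab1 and H2-Eb1 were still called and the median of the 6 genes was -2.00, Cd74 was at -1.30 and not called, and H2-DMa was at 0.27. Whether the class II transcripts were made by neutrophils was not tested. The 9 tested MHC class I genes held no call and had a median of 0.19.

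Most other functional lists held few or no calls. The 5 Fc receptor genes held no call, but 4 of 5 values were below 0 and the median was -1.02, or -0.31 without the large cells, with Fcgr3 at 517 and 301 CPM (-0.78) and Fcer1g, the shared signalling chain, at 2685 and 3753 CPM (0.48). The 9 tested IL-1 family genes held no call: Il1rn, the IL-1 receptor antagonist, was at 133 and 279 CPM (1.07, 0.79 to 1.35) and Il1r2, the decoy receptor, at 553 and 253 CPM (-1.13, -1.35 to -0.91). Of 10 adhesion genes Icam1 alone was called, against 1.68% of all genes called higher. The 19 glycolysis and hypoxia genes and the 11 tested pattern receptors held no call, with medians of 0.06 and -0.13. Hdc, which makes histamine, was at 1639 and 760 CPM (-1.11, -1.23 to -0.99), and 87.3% and 59.9% of thinned cells had a UMI, but its interval reached within 2-fold. Mmp8, neutrophil collagenase, was at 769 and 363 CPM (-1.08, -1.27 to -0.90), also not called.

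**Figure D5:**
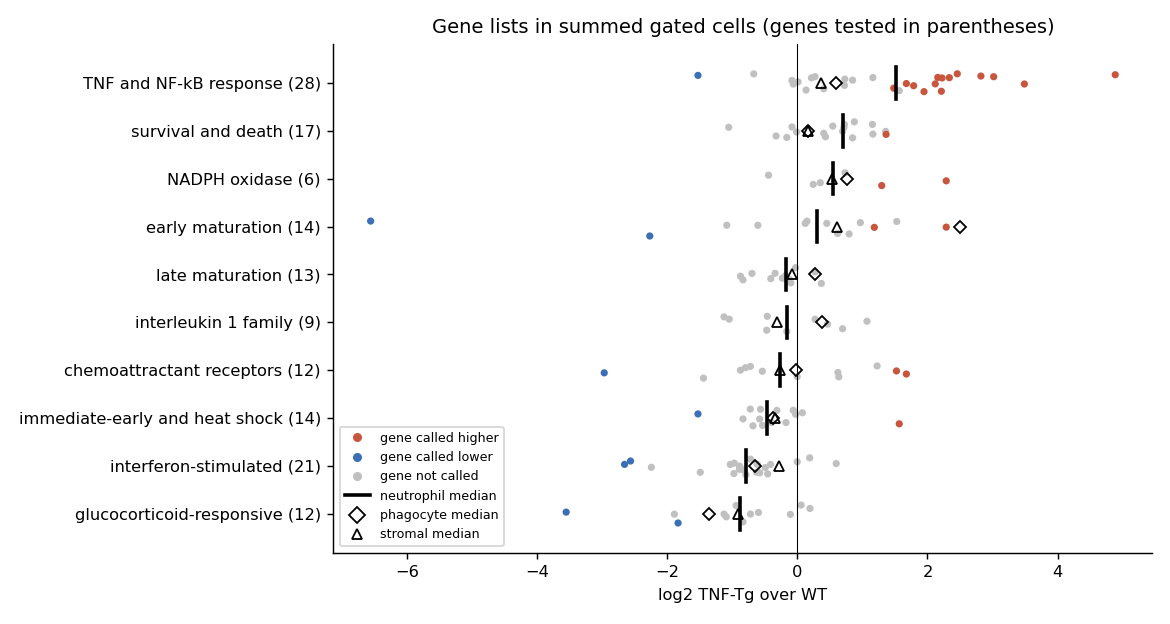
Log2 ratios of TNF-Tg to WT CPM (x axis) of the tested members of 10 gene lists (y axis) in neutrophils, 1 point per gene, with the list medians in neutrophils, phagocytes and stromal cells; Ltf, at 0 in TNF-Tg, is not drawn. The NF-kB list has its neutrophil median at 1.52, right of its phagocyte and stromal medians, and the interferon list at -0.79.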

How the data were processed

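The data were 10x Genomics scRNAseq libraries, and the deposited matrices hold raw UMI counts, made by the authors with Cell Ranger on mm10. The submitters' processing notes name Cell Ranger 3.1 and 3.1.0 and Seurat 4.0.3, and the matrix headers name 6.0.1 for WT, TNF-Tg and tdT2 and 3.1.0 for tdT1. The libraries held 68773605 (WT), 37557627 (TNF-Tg), 14256192 (tdT1) and 2357031 (tdT2) UMIs.

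All deposited barcodes were used, with no further filter. WT and TNF-Tg shared 2 barcodes, none of them gated in both. Doublets were called with Scrublet (scanpy 1.11.5) and kept, since only 8 WT and 4 TNF-Tg gated cells were marked, and were left out as an alternative. The members, gene lists and comparisons were chosen with earlier results of these data known. Genes were named by rule: the 12 whose interval lay farthest past 2-fold in each direction among those at least as high as in other cells of the library where they were higher, up to 6 in each direction among the rest, list members with at least 20 UMIs, and the 15 outside the gate with the highest ratio to other cells. List counts are out of the members analysed here. CPM are UMIs per 1e+06 UMIs of the gated cells. Counting intervals were exact (conditional binomial for ratios, Clopper-Pearson for shares, Poisson for CPM). Thinning drew 1500 UMIs per cell without replacement and left out 13 WT and 7 TNF-Tg cells. The rule was also run on simulated counts of 32287 genes for TNF-Tg over WT neutrophils. It called 49 of 97 genes with a true 3-fold change (50.5%), 87 of 99 with a 6-fold change (87.9%) and 0 of 5770 unchanged genes. The simulated counts were Poisson draws without spread between cells, mice or libraries, so they give no false-call rate for the real data. Alternatives were other scalings, stricter and looser gates, thinning, other count minimums and folds, and leaving out doublets, cells high in mitochondrial UMIs, cells poor in genes, cells with phagocyte markers and large cells. Other scalings came from edgeR 4.0.16 and DESeq2 1.42.0 on the counts in R 4.3.3, and the rest ran in Python 3.11.15 with numpy 2.4.6, scipy 1.17.1 and pandas 2.3.3. Some gene symbols, such as the Stfa and Bcl2a1 families, belong to near-identical copies that the counting could split. UMIs were counted at transcript ends, so levels were not divided by gene length. Some members of the gene lists are not reported here by name.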

Additional observations from a re-analysis of the deposited data

Results flagged for a closer look

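The tdTomato libraries were sorted for cells of the Cspg4 lineage and used in no comparison between conditions, yet their cells passed the neutrophil gate: 11 of 1504 in tdT1 (0.731%) and 30 of 454 in tdT2 (6.61%). The gated tdT cells held a median of 3590 and 2306 UMIs. The median sum of S100a8 and S100a9 was 619 UMIs per 10000 in tdT1, below the 1925 in tdT2 and the 2307 in WT.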

How the results depend on the processing

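The counts of called genes, 100 higher and 88 lower, moved most with the depth and the threshold. After thinning they were 43 and 32 of 3443 tested, with a minimum of 100 UMIs 47 and 55 of 2398, against 5956 tested otherwise, and with intervals past 1.5-fold 221 and 213. The 4 list medians kept their direction under every alternative run for them. The log2 ratio of the share of neutrophils ranged from 0.02 to 0.11 over other gates and cell filters, but was -0.11 (-0.36 to 0.13) among cells with Dcn under the limit. The NF-kB median from 1.01 to 1.74, the interferon median from -0.87 to -0.54, the early maturation median from 0.22 to 0.70 and the late one from -0.26 to -0.12. With edgeR TMM factors, 94 and 103 genes were called, with DESeq2 size factors 100 and 89. Leaving out cells over 8000 UMIs was chosen after seeing the data. It put the median log2 ratio of all genes tested at -0.11 and turned Ngp (1.48), Camp (1.85), H2-DMa (0.27) and Tppp3 (-0.89), where the intervals of the last 3 include 0 and Camp rests on 1 and 2 UMIs (-2.41 to 7.73). Of 284 genes named by rule, 3068 values stayed, 267 moved and 4 turned, and 73 could not be given because a sum was 0. No paired analysis was possible because each condition is 1 library. For the same reason no replicate could be left out. On the simulated data, which hold counting error only, a true 3-fold change was called in 50.5% of the changed genes with at least 20 UMIs. The share was 76.5% of those with at least 100, so with counting error alone the depth already limits what could be called.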

Other observations

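Some further groups of neutrophil genes were measured. The protease inhibitors and stefins held no call among 9 tested, with a median log2 ratio of TNF-Tg to WT of 0.76. Wfdc17, a whey acidic protein, stood at 3614 CPM in WT and 7288 in TNF-Tg (1.01, 0.96 to 1.06) and was called without the cells over 8000 UMIs, as was Wfdc21. Among 8 transcription factors of mature neutrophils, Fosl2, an AP-1 subunit, was called lower, with 432 and 101 UMIs (-1.40, -1.73 to -1.09), and Bhlhe40 higher, with 7 and 29 UMIs (2.75, 1.52 to 4.18), against 1.48% lower and 1.68% higher of all genes tested. Neither was called without those large cells. Spi1, which encodes the myeloid factor PU.1, was at 860 and 876 CPM, and Cebpb at 3029 and 2605 CPM.

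The 6 tested S100 genes outside the gate held 1 call, S100a4, with 252 and 553 UMIs (1.83, 1.61 to 2.05), against 1.68% of all genes called higher. S100a4 stood at 876 and 2520 CPM in the other cells of these libraries, and its log2 ratio was 0.57 and not called without the large cells. S100a6 was at 9636 and 9887 CPM. The 7 tested eicosanoid genes held no call, with a median of -0.61, and Alox5ap, which presents substrate to 5-lipoxygenase, was at 2068 and 1656 CPM. Among survival genes Gadd45b, a stress response gene, was at 90.6 and 202 CPM (1.15, 0.82 to 1.49) and was not called.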
